A study of Mus musculus with 43 samples.

Results

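The genes described here encode the nuclear part of the mitochondrial respiratory chain and of ATP synthase. They were chosen by symbol alone: protein-coding genes whose symbol starts with Nduf, Uqcr, Cox4 to Cox8 or Atp5, together with Sdha, Sdhb, Sdhc, Sdhd, Cycs and Cyc1. The tissue isoforms Cox7a1 and Cox8b and pseudogenes were left out. The rule gave 82 genes among the 22622 gene rows that each of the 5 deposited tables holds. A further 14 of the 96 reference genes that meet the rule were not analysed here, so the counts are not those of whole complexes. Members were assigned to complexes by symbol alone, so a protein of another complex than its symbol names, Ndufa4 included, is counted by its symbol. By this rule 32 members are counted as subunits of complex I, 8 as its Ndufaf assembly factors, 3 in complex II, 8 in complex III including Cyc1, 15 in complex IV and 15 in complex V, and Cycs encodes cytochrome c. Cox7b2 and Cox8c were near 0 in all tables, and 78 to 80 members per table passed the filter on low values.

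Complex I (NADH dehydrogenase) and complex II (succinate dehydrogenase) pass electrons to ubiquinone, complex III passes them on to cytochrome c, and complex IV (cytochrome c oxidase) passes them to oxygen. Complexes I, III and IV pump protons, and complex V, ATP synthase, uses the returning protons to make ATP. In thermogenic fat cells Ucp1 lets protons return without ATP synthesis, so that respiration gives heat. White fat has fewer mitochondria per cell than brown fat, and fat cells that turn beige in the cold gain mitochondria.

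Inguinal white adipose tissue, the subcutaneous fat depot of the groin, was sampled from 43 mouse samples in 9 groups, and messenger RNA was sequenced. Wild-type C57BL/6J tissue came from postnatal day 28 (P28) at 22 C or 30 C (n = 4 each), and from 9 weeks at 22 C or 4 C (n = 4 each). TrkAf/fTHcre tissue (floxed TrkA with Th-cre, n = 4) came from P28 at 22 C. Bcl6f/f tissue (floxed Bcl6 without Cre) and Bcl6f/fPrx1cre tissue (floxed Bcl6 with Prx1-cre) came from P25 at 22 C (n = 7 and 8) and from 9 weeks at 4 C (n = 4 each). Thermoneutrality for mice lies near the warmest of these temperatures. Th-cre recombines in tyrosine hydroxylase-expressing cells, sympathetic neurons among them. Prx1-cre recombines in mesenchyme of the limb and elsewhere, which gives rise to fat cell precursors of this depot. The controls of TrkAf/fTHcre were wild type and not floxed mice without Cre, whereas both Bcl6 groups carry the floxed alleles. The labels do not state whether the libraries of a group come from different animals, and the tests below speak of the spread among libraries.

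Bcl6, the targeted gene of 2 tables, was read first. At 9 weeks its normalized counts were 1607, 2007, 1836 and 2529 in Bcl6f/f and 14493, 12528, 9791 and 9624 in Bcl6f/fPrx1cre. At P25 it ran from 454 through a median of 759 to 1395 without Cre and from 1517 through 2715 to 3329 with it. The gene total was thus higher where the label reports a deletion, and a total over a gene does not show which exons were read; these libraries are called labelled Prx1-cre below.

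Library depth, estimated from the spacing of low values, was 3503000 to 6432000 reads at P28, 4995000 to 15780000 at P25, 16870000 to 30730000 in the 9-week Bcl6 table and 6268000 to 8861000 in the 9-week wild-type table. The 5 tables were normalized separately, so levels were compared within a table. Levels are normalized counts per gene, not divided by gene length, so levels of different genes are not compared. The adipocyte markers were high in every library, with a mean log2 level between 11.7 and 15.4. Libraries also differed in Xist and in markers of other tissue. Xist, transcribed from the inactive X chromosome, was above 100 in 2 of the 4 wild-type libraries kept at 22 C to P28, in 3 of the 4 kept at 30 C, in 1 of 4 TrkAf/fTHcre libraries, in 3 of 7 and 4 of 8 at P25, in all 8 of the 9-week Bcl6 table, and in 2 of 4 per group in the 9-week wild-type table. The skeletal muscle list, which marks carried-over muscle, varied widely within groups, and its values are given beside the results. So did summed counts of a list of epithelial markers, from 69.6 to 7226 in wild type at P28 and 22 C. In wild type at 9 weeks and 22 C they ran from 32.1 to 4227. Those of a list of B and T cell markers ran from 72.9 to 2995 in Bcl6f/f at P25.

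Promoter sequence was available for 67 of the 82 members (RefSeq, GRCm38.p6, 250 bases before and 50 after the start). The members that the results below turn on are shown by the 250 bases before their start, on the strand of the gene. Capitals mark TGACGTCA, the palindrome bound by CREB and ATF factors, and CGCATGCGC, the core of the site of NRF1, a regulator of respiratory chain genes. Cycs, the member that fell most at 30 C, holds both. Uqcrfs1, the iron-sulphur subunit of complex III, and Ndufaf4, the complex I assembly factor called in the cold, hold 1 motif each. Atp5g1, which rose in both tables of Bcl6 genotypes, holds neither, nor TTCCNNGAA, the form bound by Stat5 and Bcl6.
Cycs: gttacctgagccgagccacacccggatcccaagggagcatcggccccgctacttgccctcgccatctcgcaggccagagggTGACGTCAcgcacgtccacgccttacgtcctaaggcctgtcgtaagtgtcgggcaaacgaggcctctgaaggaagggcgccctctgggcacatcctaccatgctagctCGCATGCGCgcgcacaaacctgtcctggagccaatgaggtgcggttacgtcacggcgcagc
Uqcrfs1: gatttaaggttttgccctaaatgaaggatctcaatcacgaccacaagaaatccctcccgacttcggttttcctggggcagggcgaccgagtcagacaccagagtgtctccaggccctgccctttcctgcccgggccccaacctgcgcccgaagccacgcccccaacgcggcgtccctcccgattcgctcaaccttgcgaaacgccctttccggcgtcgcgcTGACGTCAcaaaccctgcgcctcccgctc
Ndufaf4: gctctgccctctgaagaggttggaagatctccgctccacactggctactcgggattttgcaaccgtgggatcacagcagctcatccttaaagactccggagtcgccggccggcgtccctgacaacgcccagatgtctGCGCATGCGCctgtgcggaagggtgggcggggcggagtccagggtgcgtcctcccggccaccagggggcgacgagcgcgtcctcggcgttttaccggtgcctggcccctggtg
Atp5g1: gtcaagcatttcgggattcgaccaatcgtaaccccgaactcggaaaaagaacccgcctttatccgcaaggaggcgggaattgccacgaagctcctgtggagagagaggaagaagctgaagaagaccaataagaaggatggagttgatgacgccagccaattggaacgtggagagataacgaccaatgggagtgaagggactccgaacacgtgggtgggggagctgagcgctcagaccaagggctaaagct
These stretches lie at chr6:50566570-50566819 on the minus strand (Cycs), chr13:30545317-30545566 minus (Uqcrfs1), chr4:24897833-24898082 plus (Ndufaf4) and chr11:96075632-96075881 minus (Atp5g1). In Cycs TGACGTCA begins 169 bases and CGCATGCGC 61 bases before the start, and in Uqcrfs1 TGACGTCA begins 29 bases before it. In Ndufaf4 the NRF1 core stands in both orientations, overlapping, so that 10 letters are in capitals.

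Over the whole window and on both strands, CGCATGCGC stood in 11 of the 67 members, or 16.4%, against 1.95% of the 27025 genes with a promoter and 2.61% of those that are protein-coding. The 11 were Atp5g2, Atp5k, Atp5l, Cox6a1, Cycs, Ndufa11, Ndufa8, Ndufaf4, Ndufaf5, Uqcr11 and Uqcrc1. AAGATGGCG, bound by YY1, stood in 8 members (11.9%, against 1.64% of all genes), TGACGTCA in 4 (5.97% against 2.03%) and CCGGAAGT, an ETS motif bound by GABPA among others, in 5 (7.46% against 4.31%). TCAAGGTCA, bound by oestrogen-related receptors, stood in Atp5g3 and Sdhd (2.98% against 0.466%), and TTCCNNGAA in 5 members (7.46% against 5.60%). Some of these motifs can share letters, TTCCNNGAA and CCGGAAGT among them, so their counts are not independent. The motifs were chosen with these sequences in view, and a match is a run of letters and not a shown binding site.

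Warm housing at P28 went with lower levels across the whole chain. The comparison asks what 30 C, compared with 22 C, does to the depot around weaning. Of 78 tested members, 45 fell at 30 C and 0 rose at an adjusted p under 0.05 (limma on log2(value + 1), Benjamini-Hochberg over all genes), where 3.17% of all 12283 genes fell and 1.29% rose. At an unadjusted p under 0.05 there were 62 members, against 19.4% of all genes. The log2 fold change was below 0 for 75 of 78 members, against 48.1% of all genes, with a median of -0.41 against 0.01 for all genes. In bulk tissue fewer cells of a type and less RNA per cell cannot be told apart.

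**Figure D1:**
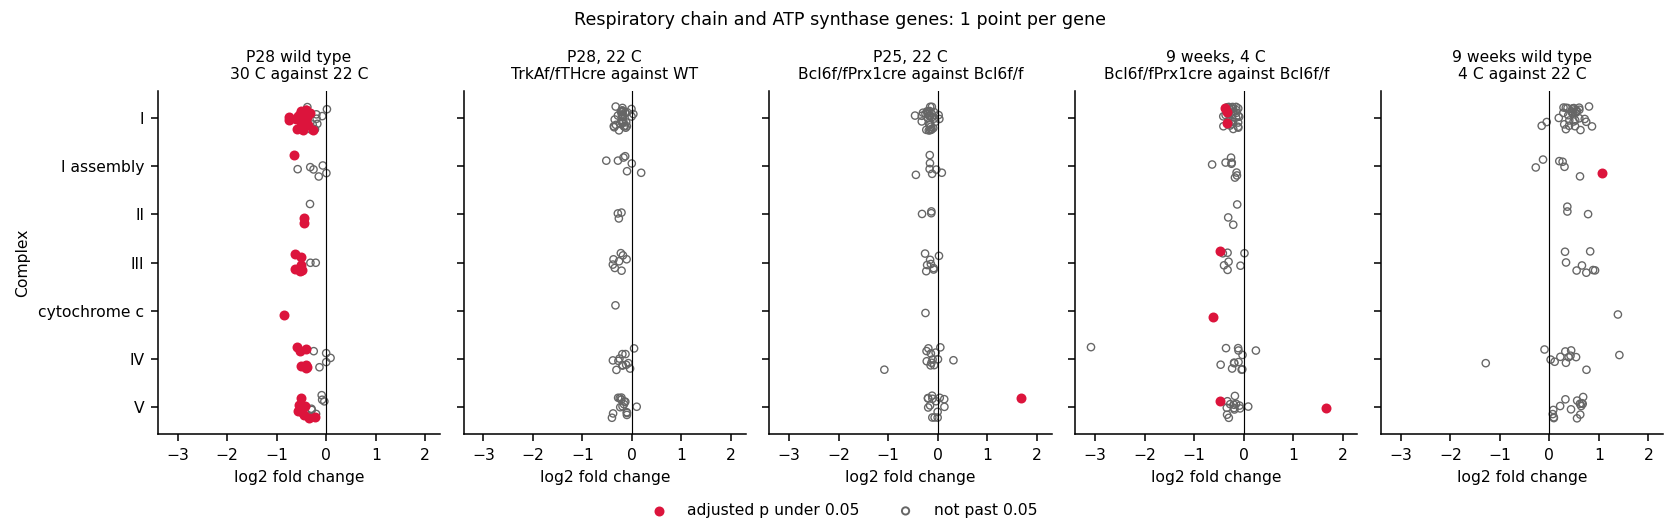
Log2 fold change of each tested member (x axis) by complex (y axis, jittered), with 1 panel per comparison; filled points have an adjusted p under 0.05 in limma. At P28 the 45 filled points lie left of 0, and in both panels of Bcl6 genotypes the filled point right of 0 is Atp5g1, at 1.67 and 1.66. The member far left in the 9-week Bcl6 panel is Cox6a2, at -3.08.

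Cycs, the mobile electron carrier between complexes III and IV, showed the largest fall. Its normalized counts were 1646, 1871, 1649 and 1940 at 22 C and 1044, 1037, 942 and 921 at 30 C. The groups did not overlap, and the log2 fold change was -0.85 ± 0.08 (SE, adjusted p = 0.0017). Cycs passed the threshold in all 19 alternatives tried for it.

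In complex I, 20 of 32 subunit genes fell, with a median of -0.41. Ndufb6, an accessory subunit of the membrane arm, was at 419, 469, 380 and 428 at 22 C and 241, 276, 238 and 246 at 30 C (-0.76 ± 0.08, adjusted p = 0.00274). Ndufc1, another accessory subunit, was at 232, 250, 209 and 238 against 136, 149, 117 and 152 (-0.75 ± 0.10, adjusted p = 0.00726). In both genes each 30 C library lay below each 22 C library. Among the core subunits that carry the redox centres, Ndufs1, with several iron-sulphur clusters, changed by -0.56 ± 0.08 and Ndufv2, of the NADH-binding module, by -0.61 ± 0.07, both past the threshold. Ndufab1, the mitochondrial acyl carrier protein, changed by -0.46 ± 0.08 (adjusted p = 0.0129). Ndufs7, the core subunit next to the ubiquinone site, was at 561, 587, 469 and 530 against 526.02, 592, 447 and 612 (0.01 ± 0.11). It was the 1 complex I subunit gene with a fold change above 0, and its groups overlapped.

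Of the 7 tested assembly factors of complex I, Ndufaf1 was the 1 that fell, from 159, 169, 168 and 176 to 108, 110, 97.0 and 112 (-0.65 ± 0.08, adjusted p = 0.00539). Ndufaf4 was lower in each 30 C library, at 109, 96.1, 136 and 137 against 169, 155, 198 and 190, but its adjusted p was 0.0522 (-0.58 ± 0.14). The median of the 7 was -0.26. A separate list of 33 tested assembly factors of complexes I to V outside the members held 9 that fell and 0 that rose. Atpaf2, a chaperone of the ATP synthase alpha subunit, changed most of those named, from 500.03 ± 50.2 to 320.2 ± 11.7 (SD, n = 4 each, log2 fold change -0.64 ± 0.08, adjusted p = 0.00516).

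Complex II fell in 2 of 3 genes. Sdha, the flavoprotein that oxidizes succinate, was at 5753, 6568, 4957 and 5936 at 22 C and 4272, 4212, 4056 and 4458 at 30 C (-0.44 ± 0.09, adjusted p = 0.0285). Sdhd, a membrane anchor, changed by as much (-0.44 ± 0.07, adjusted p = 0.0108), and Sdhc, the other anchor, had -0.33 ± 0.10 and an adjusted p of 0.112.

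Complex III had the lowest median of the 5 complexes, -0.52, and 6 of its 8 genes fell. Uqcrc2, a core subunit, was at 2807, 3164, 2495 and 2727 at 22 C and 1816, 1769, 1749 and 1867 at 30 C (-0.63 ± 0.08, adjusted p = 0.00395). The promoter of Uqcrfs1 is shown above, and its counts of 1855, 2026, 1687 and 1890 stood against 1292, 1199, 1128 and 1210 (adjusted p = 0.00317). In both genes the groups were far apart, with no overlap. Cyc1, which holds the cytochrome c1 haem, changed by -0.54 ± 0.11 (adjusted p = 0.0322). Uqcr11 and Uqcrh, small subunits, did not pass the threshold.

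In complex IV, 7 of 12 tested genes fell. Cox7b was at 1035, 1155, 1059 and 1037 at 22 C and 748, 681, 661 and 744 at 30 C (-0.60 ± 0.07, adjusted p = 0.00274). Cox6a1, Cox6c, Cox5b, Cox6b1, Cox7a2 and Cox8a, further nuclear subunits around the mitochondrial core, fell by 0.39 to 0.52 on the log2 scale. Cox4i1, the common form of subunit 4, was at 3762, 4058, 3256 and 3885 against 3254, 3221, 2796 and 3276, with groups that overlapped (-0.25 ± 0.09, adjusted p = 0.144). Cox7a2l, which takes part in supercomplexes of III and IV, had the highest fold change of all members, 0.09 ± 0.06. Cox7c was at 307, 396, 303 and 363 against 359, 286, 330 and 271, so the member with the largest fold change in the adult cold did not differ here beyond its spread.

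In complex V, 8 of 15 genes fell, with a median of -0.35. Atp5b, the catalytic beta subunit, was at 14233, 16070, 12304 and 14720 at 22 C and 10370, 10413, 9495 and 10297 at 30 C (-0.49 ± 0.10, adjusted p = 0.0247). Atp5mpl, a small membrane subunit, changed by -0.57 ± 0.13 and Atp5md by -0.55 ± 0.10. The 3 genes of subunit c, whose protein forms the rotor ring, did not pass: Atp5g1 had -0.04 ± 0.13, Atp5g2 -0.09 ± 0.06 and Atp5g3 -0.20 ± 0.08. Atp5j, a subunit of the stalk, had -0.08 ± 0.07.

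The skeletal muscle score (mean log2 level of 12 genes) ran from 4.98 to 5.83 at 22 C and from 4.36 to 10.2 at 30 C, and with it as a covariate 11 of the 45 members remained past the threshold and 0 rose. Over all genes the falls went from 389 to 90 in that fit. The fold changes of the members were about as large with the covariate as without it: the median was -0.45, Cycs had -0.85 ± 0.10, Cyc1 -0.61 ± 0.15, Atp5b -0.53 ± 0.13 and Cox5b -0.47 ± 0.14, and of these 4 Cycs passed. Leaving out 1 library gave 17 to 52 calls, with 17 when the fourth library at 22 C was left out. Over all genes 53 rose and 123 fell without that library, against 158 and 389 with all libraries. Among the 2 against 3 libraries with high Xist 72 of 78 members were lower at 30 C, and among the 2 against 1 with low Xist 74 of 78 were lower, without a test.

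**Figure D2:**
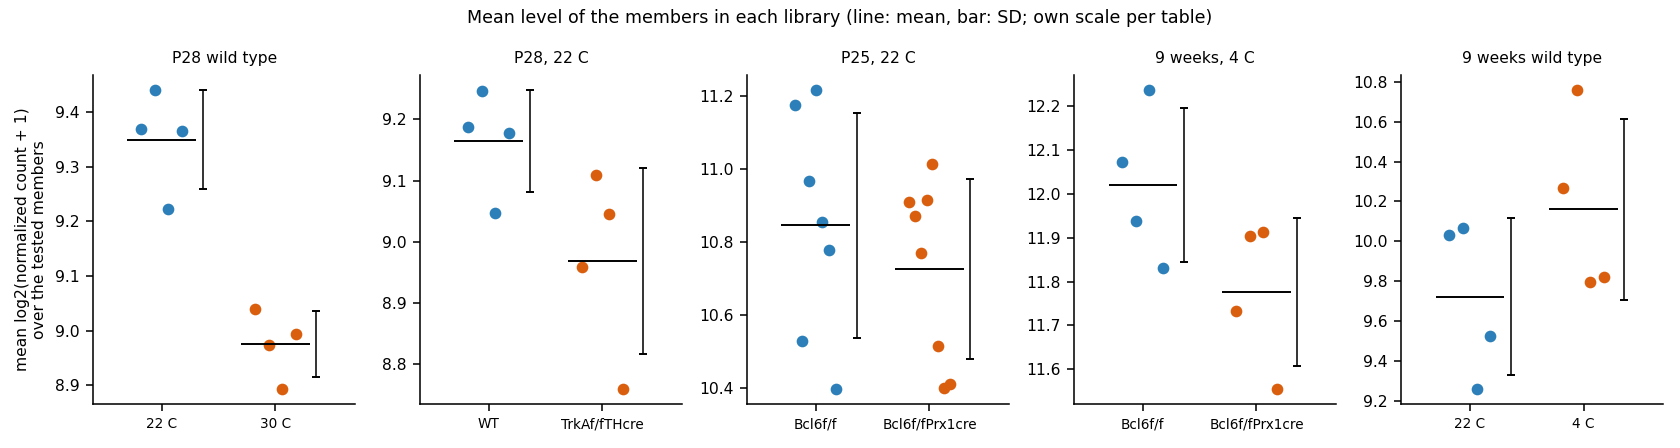
Mean log2(normalized count + 1) over the tested members in each library (y axis, a scale of its own per table), by group; lines are group means and bars SD. At P28 the 4 libraries at 30 C lie between 8.89 and 9.04 and those at 22 C between 9.22 and 9.44, while the groups overlap in the other 4 tables.

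Floxed TrkA with Th-cre was compared at P28 and 22 C with the same 4 wild-type libraries, so the 2 comparisons at P28 are not independent and their fold changes are only set side by side. None of the 78 tested members passed the threshold (limma, 0 higher and 0 lower), where 1.34% of all 11899 genes rose and 1.32% fell. At an unadjusted p under 0.05 there were 19 members, 24.4% of those tested, against 19.2% of all genes. The fold change was below 0 for 74 of 78, against 50.9% of all genes, and the median was -0.19 against -0.01.

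Cycs was at 1452, 1637, 1461 and 1704 in wild type and 1331, 1366, 1283 and 1004 in TrkAf/fTHcre (-0.33 ± 0.11, adjusted p = 0.145), where the value at 30 C was -0.85. Ndufaf4 was at 149, 136, 175 and 167 against 126, 105, 104 and 101 (-0.52 ± 0.12, adjusted p = 0.0571), where 30 C gave -0.58. In both genes the groups did not overlap, and neither passed the threshold. Uqcrc1, a core subunit of complex III, was at 2614, 2636, 1984 and 2406 against 1658, 2025, 1949 and 1718 (-0.39 ± 0.11, adjusted p = 0.108), and its groups overlapped. Atp5d, the delta subunit of the ATP synthase stalk, had -0.41 ± 0.16, Cox5b -0.39 ± 0.13, and Atp5b -0.19 ± 0.15. The fourth TrkAf/fTHcre library had the lowest mean over the members, 8.76, while the other 3 lay between 8.96 and 9.11 and wild type between 9.05 and 9.25. The muscle score was 5.95 to 8.44 in TrkAf/fTHcre and 4.57 to 5.31 in wild type, and with it as a covariate 0 members passed and the median was -0.13. Over all genes 13 rose and 7 fell in that fit. The fold change of Atp5d with the score as a covariate was 0.0047.

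At P25 the libraries labelled Prx1-cre were compared with Bcl6f/f at 22 C to ask what the repressor Bcl6 does in mesenchyme-derived cells of the depot. A single member of 79 tested passed, Atp5g1, which rose, where 1.56% of all 12738 genes rose and 1.97% fell. The fold change was below 0 for 68 of 79 members, against 49.1% of all genes, with a median of -0.14 against 0.00. At an unadjusted p under 0.05 there were 6 members, fewer in share than the 15.0% of all genes.

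Atp5g1 is 1 of the 3 genes that encode the same mature subunit c with different targeting sequences. It ran from 553 through a median of 698 to 912 in the 7 Bcl6f/f libraries and from 1814 through 2128 to 2813 in the 8 labelled Prx1-cre. No library of either group came near the other group, and the fold change was 1.67 ± 0.13 (adjusted p = 1.1e-06). Atp5g2 ran from 1471 through 2131 to 2479 against 1481 through 1774 to 2164 (-0.16 ± 0.12), and Atp5g3 from 3682 through 4630 to 7360 against 4198 through 5072 to 6096 (0.00 ± 0.14). Those groups overlapped almost fully, so the sister genes did not differ beyond their spread.

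Of the remaining members, Ndufb3, a small accessory subunit of complex I, had the smallest p, and ran from 1592 through 2481 to 2822 against 1335 through 1774 to 2143 (-0.46 ± 0.14, adjusted p = 0.0926). Its groups overlapped, and it passed in 2 of 26 alternatives, among them the fit without Bcl6f/f library F4 (adjusted p = 0.0223). Cox6a2, the muscle isoform of subunit 6a, had the lowest fold change (-1.08 ± 0.87, adjusted p = 0.633), with groups that overlapped. Sdha had -0.32 ± 0.10 (adjusted p = 0.125), Uqcrc1 -0.26 ± 0.14 and Cycs -0.25 ± 0.19. The muscle score ran from 7.64 to 10.8 in Bcl6f/f and from 3.64 to 11.7 in the libraries labelled Prx1-cre. Columns of this table carry a letter and a number; Xist was low in each library with the letter M and high in each with F, and the median over the members was -0.12 in the first and -0.13 in the second.

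At 9 weeks and 4 C the same genotypes were compared. Of 80 tested members 1 rose, again Atp5g1, and 6 fell, Cycs, Uqcrc2, Ndufb3, Ndufc2, Ndufv2 and Atp5mpl, where 9.01% of all 13496 genes rose and 5.46% fell. The share of members that fell, 7.5%, is thus near that of all genes. The fold change was below 0 for 76 of 80 members, against 52.1% of all genes, and the median was -0.23 against -0.02. At an unadjusted p under 0.05 there were 28 members, against 29.9% of all genes.

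Atp5g1 was at 1370, 1353, 2507 and 1333 in Bcl6f/f and 4750, 5917, 6132 and 3639 in the libraries labelled Prx1-cre (1.66 ± 0.24, adjusted p = 0.00379). The third Bcl6f/f library stood above the other 3 and still below every labelled Prx1-cre library. Atp5g2 had -0.18 ± 0.11 and Atp5g3 -0.07 ± 0.12. Atp5g1 passed the threshold in all 18 alternatives here and in all 26 at P25.

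**Figure D3:**
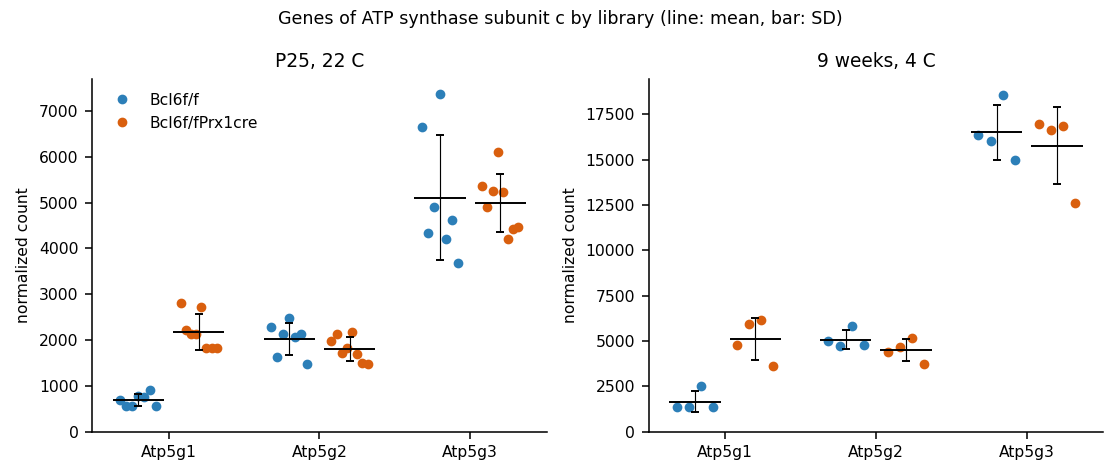
Normalized counts of the 3 genes of subunit c in each library, in the P25 table (left) and the 9-week table at 4 C (right); lines are means and bars SD. The groups are apart for Atp5g1 in both tables and overlap for Atp5g2 and Atp5g3.

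Atp5g1 lies at chr11:96072793-96075694 (GRCm38.p6, minus strand), and no other gene overlaps it in the annotation. Ube2z, which encodes a ubiquitin-conjugating enzyme, lies next to it at chr11:96047431-96065364 and was also higher, by 0.40 ± 0.07 at P25 (adjusted p = 0.00376) and 0.45 ± 0.08 at 9 weeks (adjusted p = 0.00687). Within 500 kb, 17 further genes were tested at P25, of which Ube2z was the 1 that rose and Phospho1, a phosphatase gene, the 1 that fell (-1.26 ± 0.13). At 9 weeks 15 were tested, with Ube2z risen and Phospho1, Gngt2 and Hoxb4 fallen. This window was chosen after the values of Atp5g1 were known. A position effect of an allele or transgene on Atp5g1 and Ube2z was not tested.

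Cycs at 9 weeks was at 20826, 18812, 20922 and 16092 in Bcl6f/f and 11423, 14784, 13734 and 10007 in the libraries labelled Prx1-cre (-0.63 ± 0.14, adjusted p = 0.0235). Uqcrc2 was at 21278, 18040, 20807 and 16781 against 12564, 15253, 15025 and 12114 (-0.49 ± 0.12, adjusted p = 0.0291). The groups did not overlap in either gene. Ndufb3 had -0.33 ± 0.08, Ndufc2, another accessory subunit, -0.34 ± 0.09, Ndufv2 -0.38 ± 0.11 and Atp5mpl -0.48 ± 0.13, with adjusted p of 0.0343 to 0.0486. Complex II did not pass: Sdha had -0.31 ± 0.11 (adjusted p = 0.0942). Complex IV had 0 calls among 13 tested genes and a median of -0.11.

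The 6 falls depended on single libraries. Without Bcl6f/f library 1 or 2, or labelled Prx1-cre library 1, Atp5g1 alone was called, and without labelled Prx1-cre library 4 there were 3 calls. Calls over all genes dropped as well. With all libraries 1216 genes rose and 737 fell. In these fits, in the order given, 694, 715, 724 and 969 rose and 361, 380, 374 and 510 fell. With the muscle score as a covariate Atp5g1 and Atp5mpl remained, where 1489 of all 13496 genes rose and 1343 fell. The other 5 then had fold changes about as large as before, Cycs -0.61 ± 0.19, Uqcrc2 -0.47 ± 0.15, Ndufb3 -0.29 ± 0.11, Ndufc2 -0.33 ± 0.12 and Ndufv2 -0.39 ± 0.14, with adjusted p of 0.0525 to 0.0916. That score was 14.5 in the third Bcl6f/f library against a lowest value of 7.14 in that group and 3.76 to 8.11 in the other. Cox6a2 was at 2010 in the third Bcl6f/f library and at 33.3, 50.6 and 11.2 in the other 3.

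The adult cold comparison asks what 4 C does at 9 weeks in wild type, and here the members were higher in the cold. The fold change was above 0 for 73 of 79 tested members, with a median of 0.46 against 0.02 for all genes, but a single member passed, Ndufaf4, where 2.03% of all 12118 genes rose and 2.44% fell. Below 0 were 6 members, against 47.3% of all genes, and 19 members had an unadjusted p under 0.05, against 23.8% of all genes. The 2 libraries per group with low Xist had higher levels of the members than the 2 with high Xist. Their means over the members were 10.03 and 10.07 against 9.26 and 9.53 at 22 C, and 10.27 and 10.76 against 9.80 and 9.82 at 4 C. Within each Xist level every cold library thus lay above every 22 C library.

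Ndufaf4 was at 246, 227, 165 and 211 at 22 C and 468, 702, 326 and 355 at 4 C, with no overlap (1.07 ± 0.25, adjusted p = 0.0482). Cycs was at 2521, 2764, 1281 and 1867 at 22 C and 5852, 9996, 3873 and 3423 at 4 C (1.38 ± 0.37, adjusted p = 0.068). The groups were apart in both genes, and within each group the 2 libraries with low Xist, the first and second, were the higher ones. Uqcrfs1 was at 2905, 2945, 1502 and 1980 against 4596, 7246, 3114 and 3178 (0.92 ± 0.32, adjusted p = 0.125). Uqcrc2 had 0.88 ± 0.27 (adjusted p = 0.0937), Ndufb2, an accessory subunit of complex I, 0.86 ± 0.27, and Cyc1 0.83 ± 0.34. Cox7c, a small subunit of complex IV, had the largest fold change, from 262, 293, 145 and 200 to 513, 1284, 443 and 392 (1.41 ± 0.38, adjusted p = 0.072).

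Cox4i2, the oxygen-responsive second form of subunit 4, had the lowest fold change and went the other way. It was at 18.2, 15.9, 21.4 and 16.0 at 22 C and 6.31, 7.30, 4.48 and 9.56 at 4 C (-1.28 ± 0.37, adjusted p = 0.0815). Its groups did not overlap, and Cox4i1 had 0.39 ± 0.31 beside it. These are low counts, where 1 added to each value makes the fold change an understatement.

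The main fit had no covariate. With the Xist level as a covariate, as an alternative to it, 34 members rose and 1 fell, where 10.1% of all genes rose and 8.29% fell. By complex, 15 of 32 subunit genes of complex I rose, 2 of 7 assembly factors, 1 of 3 genes of complex II, 6 of 8 of complex III, Cycs, 2 of 13 of complex IV and 7 of 15 of complex V. Cycs then had 1.38 ± 0.19 (adjusted p = 0.00487), Ndufaf4 1.07 ± 0.16 (adjusted p = 0.00588), Uqcrfs1 0.92 ± 0.15 (adjusted p = 0.00806) and Uqcrc2 0.88 ± 0.15 (adjusted p = 0.00924). In complex II the call was Sdhd (0.78 ± 0.14), and in complex IV Cox7c and Cox7b. Cox4i2 was the member that fell (adjusted p = 0.0452). Atp5b, at 21599, 25005, 13638 and 18793 against 31769, 46438, 23088 and 22965, did not pass there either (0.62 ± 0.20, adjusted p = 0.0598).

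**Figure D4:**
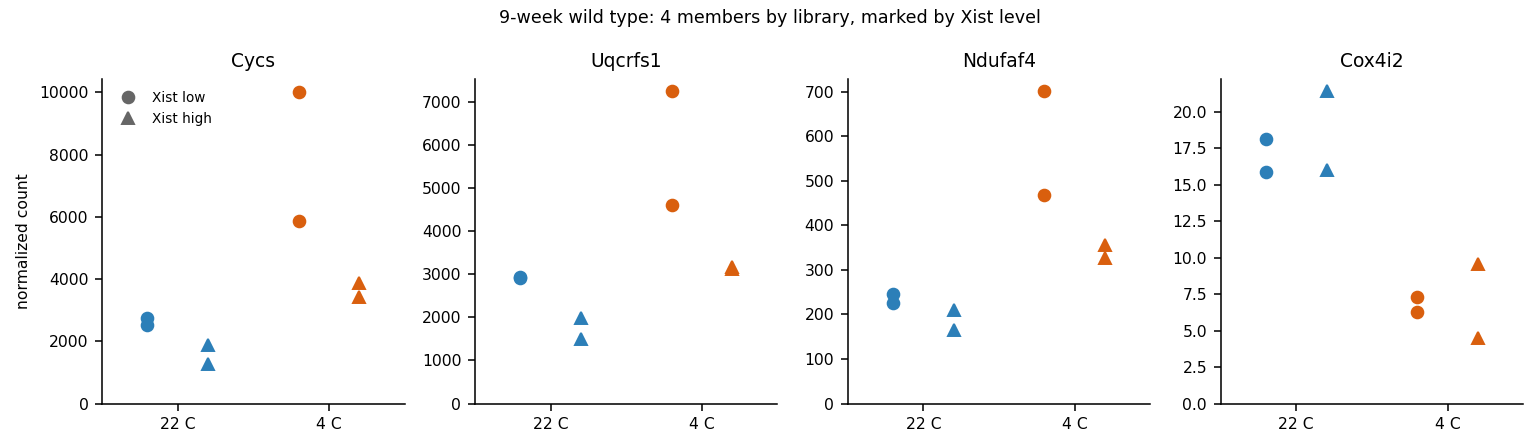
Normalized counts of Cycs, Uqcrfs1, Ndufaf4 and Cox4i2 in each adult wild-type library at 22 C and 4 C; circles mark libraries with low Xist and triangles those with high Xist. For the first 3 genes both cold libraries lie above both 22 C libraries at either Xist level, and for Cox4i2 below.

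The sets of 2 against 2 libraries at each Xist level gave like values without a test. The median over the members was 0.44 where Xist was low and 0.48 where it was high, with 68 and 73 of 79 members higher in the cold. Cycs had 1.53 and 1.24, Ndufaf4 1.28 and 0.86, and Cox4i2 -1.21 and -1.36. The muscle score was 1.97 and 2.23 in the low-Xist and 10.8 and 10.1 in the high-Xist libraries at 22 C, and 10.4 and 1.25 against 6.10 and 9.53 at 4 C. With it as a covariate in place of Xist 22 members rose and 1 fell, where 951 of all 12118 genes rose and 842 fell. The call of Ndufaf4 in the fit without Xist was lost when any 1 of the 8 libraries was left out (adjusted p = 0.0545 to 0.141).

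Fold changes varied among members of a complex in the adult cold, but differences between members were not tested. The members named here were picked from the extremes, and none of them passed the main fit. In complex V, Atp5o, Atp5pb and Atp5md had 0.67 ± 0.29, 0.65 ± 0.29 and 0.68 ± 0.34, while Atp5g1, Atp5g2, Atp5j and Atp5k had 0.07 to 0.09, with SE from 0.18 (Atp5j) to 0.45 (Atp5k). In complex IV, Cox6a1 had 0.11 ± 0.36 and Cox8a 0.03 ± 0.35 beside 1.41 for Cox7c. In complex I, Ndufa7 and Ndufa2, small accessory subunits, had fold changes below 0 (-0.15 ± 0.28 and -0.05 ± 0.35).

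The adult temperature table and the P28 temperature table share no sample. Cycs had the lowest fold change of all members at 30 C in the young and the second highest at 4 C in the adult. Over the 78 members tested in both, 70 had a fold change below 0 at 30 C and above 0 at 4 C, with a Pearson correlation of -0.61 (Spearman -0.65), against -0.12 over 11618 genes. That count is largely set by each table alone, with 75 of 78 below 0 at 30 C and 73 of 79 above 0 at 4 C. It does not show a link gene by gene. The P25 and 9-week Bcl6 tables share no sample either, and 68 of 79 members were below 0 in both. This count too is largely set by each table alone, with 68 of 79 below 0 at P25 and 76 of 80 at 9 weeks. The Pearson correlation of the 2 Bcl6 tables over the members was 0.81, or 0.75 without Atp5g1, against 0.66 over 12487 genes. By rank it was lower, with a Spearman correlation of 0.39 over the members. Cox6a2, at -1.08 and -3.08, is included in each of these member values. Genes within a library share depth and tissue makeup, and these correlations are descriptions.

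**Figure D5:**
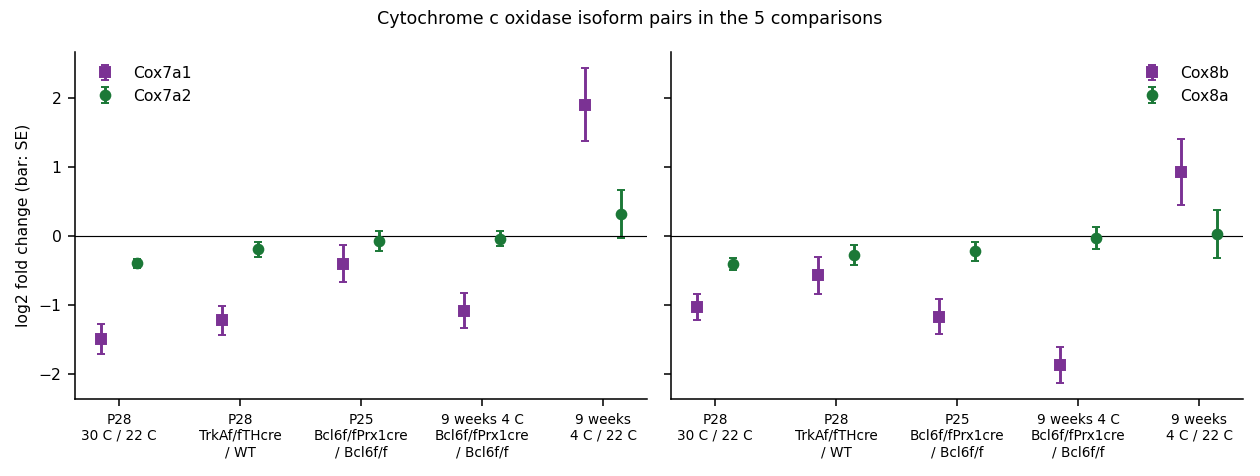
Log2 fold change with SE (y axis) of the left-out isoforms Cox7a1 and Cox8b (squares) and of the members Cox7a2 and Cox8a (circles) in the 5 comparisons (x axis). In the 9-week Bcl6 comparison Cox8b is at -1.87 and Cox8a at -0.03.

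The left-out isoforms give a measure of how far the members differ from tissue-specific subunits of the same complex. Cox7a1 and Cox8b are forms of subunits 7a and 8 known from muscle and brown fat, and Cox7a2 and Cox8a are the widely expressed forms. At 30 C Cox7a1 had -1.49 ± 0.21 and Cox8b -1.03 ± 0.18, with Cox7a2 at -0.39 ± 0.07 and Cox8a at -0.40 ± 0.09, and all 4 passed the threshold. In the 9-week Bcl6 table Cox8b was at 4622, 3862, 4245 and 3469 in Bcl6f/f and 669, 1268, 1787 and 957 in the libraries labelled Prx1-cre (-1.87 ± 0.27, adjusted p = 0.00365). Cox8a was at 14483, 13270, 17294 and 12732 against 13653, 14520, 17945 and 11094 (-0.03 ± 0.16). Cox7a1 had -1.08 ± 0.25 (adjusted p = 0.0252) and Cox7a2 -0.04 ± 0.11. The specific forms were thus apart between the groups and the common forms were not; the difference between the forms was not tested. Ucp1 changed by -4.06 ± 0.37 at 30 C, -1.96 ± 0.38 in TrkAf/fTHcre, -4.18 ± 0.38 and -2.12 ± 0.39 in the Bcl6 tables and 6.17 ± 0.53 in the adult cold, so its fold change was in each comparison larger in size than that of any member but Cox6a2 in the 9-week Bcl6 table.

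Markers of other cells moved with some of these groups. Of 9 macrophage markers, 2 rose at 30 C, where their summed normalized counts were 6662 to 8223 against 4578 to 6237 at 22 C, and 4 rose in TrkAf/fTHcre (7086 to 8741 against 4057 to 5481). At 9 weeks, 8 of 9 rose in the libraries labelled Prx1-cre (19150 to 32444 against 11121 to 15073), while at P25 and in the adult cold 0 passed. Of the thermogenic adipocyte markers, 4 of 8 fell at 30 C, 2 of 8 in TrkAf/fTHcre, 7 of 9 at P25 and 9 of 9 at 9 weeks in the libraries labelled Prx1-cre, and 3 of 9 rose in the adult cold. Of 7 Schwann cell markers 3 fell in the adult cold, among them Mbp (-0.995 ± 0.109) and Pmp22 (-0.79 ± 0.13), which encode myelin proteins, and the summed counts of the list were 2854 to 3529 at 4 C against 5732 to 6899 at 22 C. In each of the other 4 comparisons 1 of the 7 fell, Cdh19 in TrkAf/fTHcre (-1.04 ± 0.22) and S100b at 30 C (-0.84 ± 0.19), at P25 (-0.91 ± 0.15) and at 9 weeks (-1.32 ± 0.24) in the libraries labelled Prx1-cre. The list as a whole did not go with S100b at 30 C, where 6 of the 7 had a fold change above 0 (median 0.27). Above 0 were 0 of 7 in TrkAf/fTHcre (median -0.76), 1 at P25 (median -0.30) and 4 at 9 weeks (median 0.03). Among endothelial markers Cldn5 fell in the adult cold (-1.23 ± 0.28) and Vwf rose at 9 weeks in the libraries labelled Prx1-cre (0.63 ± 0.08). In TrkAf/fTHcre 3 of 13 muscle markers rose and 1 of 7 adipocyte markers fell, Retn, which encodes resistin (-1.04 ± 0.14). Of those 7 adipocyte markers 5 had a fold change above 0 there, and the median was 0.18. No marker of the lists of B and T cells or epithelium passed in any comparison. In the adult cold the B and T cell markers still had a median fold change of -2.12. Their summed counts were 36.7 to 153 at 4 C against 84.7 to 1670 at 22 C. No tested marker of these lists was at 0 in all libraries of a table, and the part of cell makeup in the levels of the members was not tested.

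A list of regulators of mitochondrial biogenesis was read beside the members. At 30 C 1 of 16 tested fell, Esrra, an oestrogen-related receptor that binds promoters of respiratory chain genes (-0.40 ± 0.09, adjusted p = 0.0405). In TrkAf/fTHcre 0 of 15 passed, and Esrra had -0.68 ± 0.16 (adjusted p = 0.0563). At P25 1 of 16 rose in the libraries labelled Prx1-cre, Ppargc1a, the coactivator PGC-1alpha (0.56 ± 0.14, adjusted p = 0.0422), a direction opposite to the median of the members. At 9 weeks and 4 C 5 of 17 fell and 1 rose there: Perm1, a muscle-enriched partner of PGC-1alpha, had -2.61 ± 0.39, the nuclear receptor gene Ppara -1.28 ± 0.29 and Esrrg -0.81 ± 0.22, and the corepressor gene Nrip1 0.78 ± 0.15. In the adult cold 3 of 17 rose: Esrrb (3.21 ± 0.45), Esrrg (1.72 ± 0.33) and Perm1 (4.54 ± 1.00). Nrf1 itself did not pass in any of the 5 tables.

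Some members have near-identical copies elsewhere in the genome, between which reads can be split. For 23 of 82 members another annotated transcript matched at least 80% of the coding sequence at 95% identity or more, and for 21 of them the copy was a pseudogene. Cycs, Cox7c, Ndufb3, Uqcrb and Atp5g1 are among the 23, and their levels are uncertain to that extent. At 30 C 17 of the 23 with a copy and 28 of the 55 without one fell, with medians of -0.46 and -0.40.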

How the data were processed

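Messenger RNA of inguinal fat was sequenced in 43 samples with a stranded kit, per the labels' protocols. The authors deposited signal values, which are gene-level normalized counts, in 5 tables, 1 per comparison; the same 4 wild-type libraries stand in both P28 tables. The tools named are kallisto, DESeq2 and the mm10 build, per the submitters' processing notes; their versions were not given in the sources used here. Deposited values are not whole and whole reads could not be recovered: within 0.02 of a whole multiple lay 6.08 to 67.1% of low values. Depth estimates are therefore rough.

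Symbols came from RefSeq by gene ID, and 21 of the 22622 gene IDs had none. Values were tested with limma 3.58.1 (R 4.3.3) as log2(value + 1) with a mean-variance trend, within each table, for genes at 10 or more in a number of libraries no smaller than the smaller group. Adjustment was by Benjamini-Hochberg over all tested genes, with a threshold of 0.05, and the fits were tested on simulated data. Some values that the naming rule covers are not reported here. Fold changes on this scale understate those of low genes. Members, lists, markers and tests were chosen with earlier results of these data known. Within each complex the members named were the 3 with the smallest p, those with the extreme fold changes, and a fixed set that holds Cycs, Cyc1, the Sdh genes, the isoform pairs and the genes of subunit c; not all of these are printed for each comparison. An Xist level above 100 counted as high. Copies were found with BLASTN 2.17.0 against GENCODE transcripts. Alternatives were other filters and pseudocounts, other scalings (a trimmed mean of M values without precision weights, median of ratios, quantile normalization), library weights, covariates, a replicate block and each library left out. The joint covariates of Xist and muscle and the block by column code at P25 were chosen after seeing the data.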

Additional observations from a re-analysis of the deposited data

Results flagged for a closer look

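Some values of the members named above stood apart from their group by Dixon's criterion, among 42 groups checked, of which chance gives about 1 in 20. Atp5b in the third P28 library at 30 C was lowest of its 4, at 9495, with 0.874 of the group's range between it and the next. Atp5g1 in the third Bcl6f/f library at 9 weeks and 4 C was highest, at 2507, with 0.968 of the range, and Cox6a2 in that library, at 2010, with 0.980. That library had the highest skeletal muscle score of its table, 14.5; the part of muscle RNA in its Atp5g1 value was not tested.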

How the results depend on the processing

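The median fold change of the members kept its sign in all 102 alternatives over the 5 comparisons, and counts of calls changed more. With skeletal muscle as a covariate the count was 11 at P28 between temperatures, 2 in the 9-week Bcl6 table (1 up) and 23 in the adult temperature table (22 up), and Atp5d in TrkAf/fTHcre turned to 0.0047. The muscle scores of TrkAf/fTHcre and its wild type do not overlap, so that fit cannot separate the score from the genotype. Over all genes the fits of these 3 counts gave 17, 1489 and 951 rises and 90, 1343 and 842 falls. Library weights gave 3 falls among 78 tested members in TrkAf/fTHcre, 15 calls among 80 in the 9-week Bcl6 table and 3 among 79 in the adult temperature table. Over all genes they gave 463 rises and 494 falls of 11899, 2487 and 2290 of 13496, and 889 and 983 of 12118, in that order. Quantile normalization gave 14 and 3 calls in the last 2 tables. Over all genes it gave 1341 rises and 772 falls in the first of these and 329 and 411 in the second. In the adult temperature table the count was 0 without a filter or with a trimmed mean, 35 with the Xist level and 55 with Xist and muscle together (54 up). Over all genes the fit without a filter gave 166 rises and 214 falls of 16296, and the trimmed mean 181 and 233 of 12120. With the Xist level 1221 of all 12118 genes rose and 1005 fell. With Xist and muscle together 1433 of all 12118 genes rose and 1184 fell. Leaving out 1 library gave 17 to 52 calls at P28 between temperatures, 0 to 1 in TrkAf/fTHcre (1 without wild-type library 3), 1 to 2 at P25 (2 without Bcl6f/f library F4), 1 to 6 in the 9-week Bcl6 table and 0 in the adult temperature table. Calls over all genes varied widely too. Falls over all genes ran from 123 to 528, 34 to 404, 155 to 377 and 361 to 1696 in the first 4 tables, in that order. Leaving out a 22 C library in the adult table gave 30 to 124 rises and 42 to 232 falls over all genes. The cause was not tested. Among the named members 1 alternative turned a sign, 97 lost a call and 41 gained one. The labels do not say whether equal replicate numbers pair the samples, and the samples were treated as unpaired. In each table at least 1 pair of deviations, matched at P25 by column code, correlated under 0.1. In the adult temperature table the values were -0.26, 0.77, 0.50 and 0.51. There libraries 1 and 2 had low Xist and libraries 3 and 4 high Xist in both groups. These correlations cannot decide on pairing, since a shared Xist level also enters them. With a replicate block the count was 30 at P28 between temperatures, 0 in TrkAf/fTHcre, 4 in the 9-week Bcl6 table and 33, all up, in the adult temperature table. Over all genes these fits gave 57, 107, 727 and 940 rises and 179, 150, 444 and 726 falls, in that order. The letter and number of the P25 columns match no sample label. With them as a block, chosen after seeing the data, 4 members were called (1 up), where 304 of all 12738 genes rose and 427 fell. The falls were of Cycs (-0.27 ± 0.06, adjusted p = 0.0316), Ndufb3 (-0.51 ± 0.11, adjusted p = 0.0342) and Ndufv1 (-0.37 ± 0.09, adjusted p = 0.0462). Low counts limit precision: Cox4i2 and Cox6b2, at 4.48 to 28.4 in both P28 tables and the adult temperature table, had standard errors of 0.33 to 0.43 there.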
